A study of Mus musculus with 14 samples.

Results

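The guanylate-binding protein (GBP) genes Gbp2, Gbp2b, Gbp3, Gbp4, Gbp5, Gbp6, Gbp7, Gbp8, Gbp9 and Gbp11 were followed through 3 measurements of mouse liver. They were chosen by symbol, and make up 10 of the 29737 gene symbols in the 3 tables together. All 10 were listed in both bulk RNA-seq tables and 9 in the table of single-nucleus RNA-seq, where Gbp11 was not a symbol. The study concerned the macrophage membrane protein Ms4a7 and lipid droplets in nonalcoholic steatohepatitis (NASH), a fatty liver disease with inflammation. In bulk tissue, 3 libraries labelled wild type (WT) and 3 labelled Ms4a7 KO came, by their labels, from livers after 22 weeks on a NASH diet. A second set came, by its labels, from wild type, chow-fed mice given tail-vein injections on 6 consecutive days, with 3 PBS-labelled libraries and 3 labelled LD (lipid droplets). For the nuclei there was 1 library from wild type and 1 from Ms4a7 KO liver after 22 weeks on the NASH diet, and each pooled 3 livers. The labels used here give no age, no sex, no design of the KO allele and no origin of the droplets, and do not say whether the bulk libraries came from separate mice. The p-values therefore measure only the spread between these libraries.

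GBPs are large GTPases that cells make in quantity after interferon gamma. Interferon gamma induces the transcription factor IRF1, which acts on promoters that carry interferon-response elements. The proteins assemble on the vacuoles and surfaces of intracellular microbes and help inflammasomes, the caspase-1 platforms that release interleukin 1 beta, to respond to them. In the mouse the genes lie in a pair of clusters, on chromosomes 3 and 5.

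The bulk labels were at odds with the tables. The table to which the labels assign the wild type and KO libraries is named for LD, and its header calls its columns untreated and treated, while the table assigned to PBS and LD is named for Ms4a7. The targeted gene went against the genotype labels: Ms4a7 was at 19.6 ± 8.67 normalized counts in WT-labelled libraries and 118 ± 17.0 in KO-labelled ones (SD, n = 3 each), a log2 fold change of 2.63 ± 0.37 (SE, limma adjusted p = 0.0149, and 0.0630 and 0.0538 without KO replicate 2 or 3). It was at 103 ± 52.9 in PBS-labelled libraries and 9.14 ± 1.46 in LD-labelled ones (SD, n = 3 each), a log2 fold change of -3.26 ± 0.39 (SE, limma adjusted p = 0.00428). In the nuclei, the macrophage-like group had 1.25 Ms4a7 UMIs per 10000 in the wild type library and 0.622 in the KO library. In the KO table the split into 3 and 3 libraries is the same by label and by header. What is in doubt is which experiment, diet and condition each set and each side stands for, so the groups are called by their labels throughout. The stellate cell markers used below summed to 37527 to 43231 normalized counts in PBS-labelled libraries, labelled chow. They summed to 2959 to 7130 in WT-labelled ones, labelled NASH diet. The sets were normalized separately and differ in depth, and this difference was not tested. The bulk libraries held 21945394 to 23126164 reads in genes in the KO table and 39318264 to 41346464 in the LD table.

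On the mouse assembly GRCm38, the 5 members on chromosome 3 lie head to tail on the plus strand: Gbp5 (chr3:142493978-142522344), Gbp7 (chr3:142530342-142550149), Gbp3 (chr3:142560026-142573209), Gbp2b (chr3:142594847-142619179) and Gbp2 (chr3:142620602-142638008). The 5 on chromosome 5 lie on the minus strand: Gbp8 (chr5:105014150-105139540), Gbp9 (chr5:105077630-105139539), Gbp4 (chr5:105115767-105139586), Gbp6 (chr5:105270702-105293698) and Gbp11 (chr5:105323042-105346472). Gbp11 is a polymorphic pseudogene in GENCODE and a transcribed pseudogene in RefSeq, and the other 9 are protein coding. The family member Gbp10 lies between Gbp4 and Gbp6 and is not among the 10.

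How well reads can tell the copies apart was checked on the annotated transcripts. Gbp6 shared 49.9% of its 50-base words with other GBP genes, 45.9% with Gbp10 alone, so its values and those of Gbp10 are uncertain. The share was 19.2% for Gbp11, 18.1% for Gbp8, 8.05% for Gbp9 and 7.53% for Gbp4. On chromosome 3 it was 3.75% for Gbp3, 2.26% for Gbp7, 2.03% for Gbp2, 1.84% for Gbp2b and 0% for Gbp5. Exons of Gbp4, Gbp8 and Gbp9 also overlapped one another, over at most 1.77% of the exon bases of any of them.

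The promoter sequences are shown because the chromosome 3 neighbours went different ways in the bulk libraries. RefSeq promoter entries on GRCm38.p6, each running from 250 bases before to 50 after the start site, were matched for the 5 chromosome 3 members, with 2 entries for Gbp3 and 1 for each of the others. The interferon-stimulated response element (ISRE) was searched on both strands as GAAANNGAAA, which reads TTTCNNTTTC on the other strand. It occurred in 5 of these 6 windows, 1 per member, and in 3.44% of the 32851 promoters of the table. Each line below is 30 bases of the plus strand, 5′ to 3′, with the element in capitals. Gbp3 holds a pair of overlapping matches in its first window, and its second window, which starts at chr3:142560106, held neither this element nor the GAS described next. The Gbp2 element lies in annotated GENCODE exon sequence, before the RefSeq start site.
Gbp5 ISRE, chr3:142496759-142496788: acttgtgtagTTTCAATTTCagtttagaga
Gbp7 ISRE, chr3:142530273-142530302: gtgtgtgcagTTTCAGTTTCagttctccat
Gbp3 ISRE, chr3:142559992-142560021: gacacagTTTCAGTTTCTATTTCccagatc
Gbp2b ISRE, chr3:142594700-142594729: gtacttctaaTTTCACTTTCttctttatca
Gbp2 ISRE, chr3:142620594-142620623: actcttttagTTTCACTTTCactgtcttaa

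The elements of Gbp2b and Gbp2 had the same 10 letters, TTTCACTTTC, at 137 and 59 bases before their RefSeq start sites. The gamma-activated site (GAS), an element of interferon gamma-induced promoters, was searched as TTCNNNGAA, which is its own reverse complement, and occurred in 8.30% of all promoters. Gbp5 and Gbp7 each held 2, and the windows of Gbp3, Gbp2b and Gbp2 held none of these letters. Of the other motifs searched, the AP-1 element TGANTCA (7.81% of promoters) was matched in Gbp2b and Gbp2. Its first base lay at position 10, after the start site, in Gbp2b and at -102 in Gbp2. TATAAA (13.6% of promoters) was matched in Gbp3 only on the other strand, at -207. The stretches before the Gbp5 and Gbp2b start sites are given below in full, 5′ to 3′ on the plus strand up to annotated exon sequence, with ISRE and GAS letters in capitals. They are those of a member that rose and one that fell in KO-labelled libraries. The pair does not stand for all chromosome 3 members. Gbp2 rose with no GAS letters, and Gbp7, with 2, did not pass the test (log2 fold change 0.34, limma adjusted p = 0.345). The Gbp5 stretch lies inside the span GENCODE gives the gene, outside its exons.
Gbp5, chr3:142496684-142496899: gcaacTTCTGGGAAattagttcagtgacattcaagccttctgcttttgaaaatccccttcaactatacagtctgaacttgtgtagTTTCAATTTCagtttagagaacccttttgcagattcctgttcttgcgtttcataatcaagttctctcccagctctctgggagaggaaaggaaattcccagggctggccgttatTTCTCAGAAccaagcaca
Gbp2b, chr3:142594597-142594846: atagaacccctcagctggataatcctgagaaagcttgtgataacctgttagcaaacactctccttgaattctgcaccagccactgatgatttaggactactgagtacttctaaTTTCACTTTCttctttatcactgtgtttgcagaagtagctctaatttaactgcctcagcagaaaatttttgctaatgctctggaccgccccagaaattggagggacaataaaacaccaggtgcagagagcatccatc

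Between WT-labelled and KO-labelled libraries, members moved in both directions. Gbp2 and Gbp5 rose, by 2.23 and 2.07 on the log2 scale, Gbp2b and Gbp11 fell by 2.54 and 1.86, and 6 members did not pass the test. Of all 15827 genes tested, 3.72% passed at an adjusted p of 0.05 (3.02% higher and 0.701% lower). All 10 members passed the filter on low values, which asked for at least 10 normalized counts in 3 libraries. The members' median log2 fold change was 0.24, against -0.02 over all genes tested. Groups did not overlap for 4 members with higher values (Gbp2, Gbp3, Gbp5 and Gbp8) and for 2 with lower values (Gbp2b and Gbp11), against 12.4% and 11.7% of all genes (24.2% together). An unadjusted p under 0.05 was reached by 6 members (18.7% of all genes), edgeR on the reads recovered from the table called 4 (4.09%) and DESeq2 called 6 (7.84%). Whole tissue was measured, so a change in the number of cells of a type and a change in RNA per cell cannot be told apart.

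**Figure D1:**
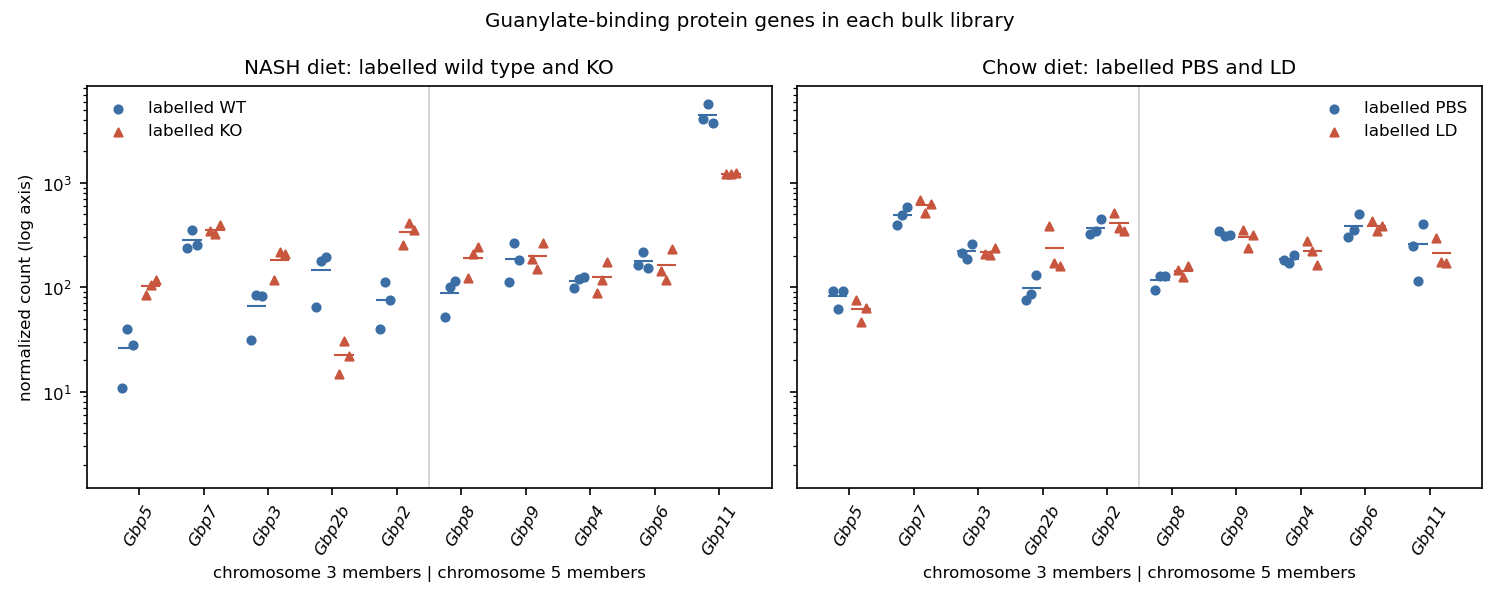
Normalized counts of the 10 members in each bulk library (log axis), with circles for WT-labelled libraries or PBS, triangles for KO-labelled ones or LD, and a bar at each group mean (n = 3). In the left panel Gbp2 and Gbp5 sit higher and Gbp2b and Gbp11 lower in KO-labelled libraries, and in the right panel only Gbp2b has groups that do not overlap.

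Gbp2, a GBP needed for control of intracellular parasites and bacteria, had 40.0, 112 and 74.7 normalized counts in WT-labelled libraries and 251, 409 and 350 in KO-labelled ones. Every KO-labelled library was above every WT-labelled library. The log2 fold change was 2.23 ± 0.36 (SE, limma adjusted p = 0.0218). The call was lost without wild type replicate 3, KO replicate 2 or KO replicate 3, where adjusted p was 0.0554, 0.0826 and 0.0740, with log2 fold changes of 2.07 to 2.28.

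Gbp2b, the mouse gene once called Gbp1, went the other way, although it is the neighbour of Gbp2 and carries the same ISRE letters. It had 64.3, 177 and 195 normalized counts in WT-labelled libraries and 14.7, 30.7 and 21.9 in KO-labelled ones. The groups did not overlap, and the lowest WT-labelled library was the first replicate. The log2 fold change was -2.54 ± 0.46 (SE, limma adjusted p = 0.0307). The call held in 1 of 6 fits that left out a library, that without wild type replicate 1 (adjusted p = 0.0126), and in the other 5 adjusted p was between 0.0657 and 0.0863.

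The ratio of Gbp2 to Gbp2b counts put this pair side by side within each library. It was 0.623, 0.635 and 0.384 in WT-labelled libraries and 17.0, 13.3 and 16.0 in KO-labelled ones. Gbp2b was thus the higher of the pair in all 3 WT-labelled libraries and the lower in all 3 labelled KO.

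Gbp5, which promotes assembly of the NLRP3 inflammasome, had 10.9, 40.0 and 28.2 normalized counts in WT-labelled libraries and 83.6, 105 and 118 in KO-labelled ones. The groups did not overlap. The log2 fold change was 2.07 ± 0.44 (SE, limma adjusted p = 0.0476). Adjusted p was 0.0560 when only genes with a mean of at least 50 were tested, and 0.0826 to 0.145 without wild type replicate 3 or without any 1 of the KO replicates.

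Gbp11 had the highest level of the members in this table. It had 4057, 5650 and 3765 normalized counts in WT-labelled libraries and 1216, 1214 and 1229 in KO-labelled ones. The groups were far apart, and the KO-labelled values had an SD of 8.28. The log2 fold change was -1.86 ± 0.15 (SE, limma adjusted p = 0.00244), and the call held in all 6 fits that left out a library, with adjusted p up to 0.0184. Per kilobase of annotated exon, Gbp11 made up 86.7%, 83.7% and 80.3% of the counts of the 11 GBP genes (Gbp10 included) in WT-labelled libraries. In KO-labelled ones it made up 55.6%, 49.3% and 45.7%.

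Gbp3 and Gbp8 had groups that did not overlap and did not pass the test. Gbp3 had 31.5, 83.9 and 82.0 normalized counts in WT-labelled libraries and 118, 216 and 210 in KO-labelled ones, a log2 fold change of 1.52 ± 0.41 (SE, limma adjusted p = 0.0946). Gbp8 had 52.1, 101 and 114 against 123, 208 and 245, a log2 fold change of 1.12 ± 0.36 (SE, limma adjusted p = 0.144). DESeq2 called both, at adjusted p of 0.00318 and 0.0223. The authors' deposited adjusted p was 0.000944 for Gbp3 and 0.00439 for Gbp8, and it was also under 0.05 for Gbp2, Gbp2b, Gbp5 and Gbp11. Wild type replicate 1 was the lowest of the 6 libraries for Gbp2, Gbp3, Gbp5 and Gbp8, and also for Gbp7 and Gbp9.

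The other 4 members had overlapping groups. Gbp7, which has been tied to oxidant production in macrophages, had 240, 354 and 251 normalized counts against 343, 320 and 397 in KO-labelled libraries (log2 fold change 0.34, 95% interval -0.06 to 0.75). Gbp4 had 99.4, 120 and 124 against 88.5, 118 and 173 (0.10, interval -0.49 to 0.68). Gbp9 had 112, 265 and 184 against 186, 148 and 268 (0.15, interval -0.64 to 0.93). None of these intervals excludes 0.

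Gbp6 had 164, 218 and 153 normalized counts against 144, 118 and 230 in KO-labelled libraries, a log2 fold change of -0.16 (95% interval -0.77 to 0.45). Its near copy Gbp10 had 235, 284 and 230 against 152, 102 and 223, with a log2 fold change of -0.71 ± 0.27 (SE, limma adjusted p = 0.212). Summed, Gbp6 and Gbp10 had a log2 fold change of -0.46 (limma adjusted p = 0.393), a comparison chosen after seeing the data.

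By cluster, the 5 chromosome 3 members had a median log2 fold change of 1.52 with 2 higher and 1 lower call, and the 5 chromosome 5 members 0.10 with 1 lower call. The order of levels per kilobase of exon also differed between the groups. In WT-labelled libraries the mean ran from 1668 counts per kilobase for Gbp11 through 51.5 for Gbp2b and 50.2 for Gbp7 to 3.97 for Gbp5, and the 64.3 to 195 counts of Gbp2b spread far wider than the gap to its neighbour Gbp7. In KO-labelled ones it ran from 453 for Gbp11 through 134 for Gbp2 and 63.0 for Gbp7 to 7.95 for Gbp2b. The 9 protein-coding members together had 170, 335 and 284 counts per kilobase in WT-labelled libraries and 322, 437 and 485 in KO-labelled ones, with overlap.

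**Figure D2:**
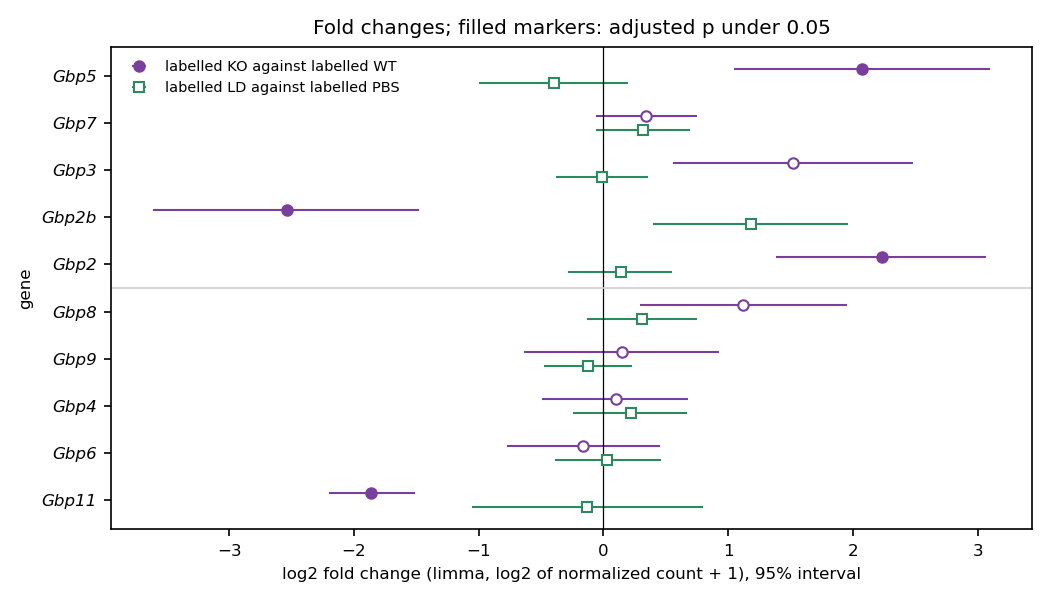
Log2 fold change of each member with its 95% interval from limma (n = 3 libraries per group), labelled KO against wild type (circles) and labelled LD against PBS (squares); filled symbols passed an adjusted p of 0.05. The 4 filled symbols, Gbp2 and Gbp5 above 0 and Gbp2b and Gbp11 below, are all from the first comparison.

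Macrophage markers moved with this comparison. Of 11 tested macrophage markers 8 were higher in KO-labelled libraries, and the summed level of all 12 was 5917 to 11879 normalized counts in WT-labelled libraries and 39956 to 67090 in KO-labelled ones, with none of them at 0. The 8 neutrophil markers summed to 76.4 to 116 against 284 to 683, with 1 of 3 tested markers higher. Hepatocyte markers summed to 2187619 to 2468892 against 2309718 to 2712402. The part of these differences in the members' changes was not tested.

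Irf1, an inducer of the family, was followed beside it. In KO-labelled libraries, Irf1 was at 911 ± 89.3 normalized counts against 603 ± 54.6 (SD, n = 3 each), a log2 fold change of 0.59 ± 0.11 (SE, limma adjusted p = 0.0367). It was called in only 1 of 6 fits without a library, that without KO replicate 1. Ifng itself has no row in this table. Over the 11 tested genes of the interferon gamma pathway (receptor, kinases, transcription factors and feedback inhibitors), the median log2 fold change was 0.46.

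The immunity-related GTPases are another interferon-induced GTPase family that acts on pathogen vacuoles. None of the 9 tested was called by limma, edgeR or DESeq2, none had an unadjusted p under 0.05, and their median log2 fold change was -0.07. Iigp1, the most abundant by count, had 6536 ± 444 normalized counts in WT-labelled libraries and 5986 ± 305 in KO-labelled ones (SD, n = 3 each). Of 17 other interferon gamma targets tested, 3 were higher and 1 lower, with a median of 0.48. The T cell-attracting chemokine Cxcl10 rose by 2.47 on the log2 scale (limma adjusted p = 0.0160), the checkpoint ligand Cd274 by 1.43 (0.0313) and the immunoproteasome subunit Psmb10 by 0.58 (0.0246). Cxcl9, which binds the same receptor as Cxcl10, fell by 2.80 (adjusted p = 0.0420), from 1836 ± 1797 to 196 ± 36.6 normalized counts. Of the 6 fits without a library, 4 called Cxcl10 and 1 each called Cd274, Psmb10 and Cxcl9.

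The list of genes that act with GBPs, named here for sensing and pyroptosis, also holds Isg15, Ube2l6, Atg5, Atg7 and Atg16l1. Of its 14 tested members 3 were higher and none lower, with a median log2 fold change of 0.62. The higher ones were the cytokine Il1b (3.35, limma adjusted p = 0.0122), the inflammasome sensor Nlrp3 (2.23, 0.0329) and the cytokine Il18 (0.77, 0.0105). Il1b and Il18 were called in all 6 fits without a library, and Nlrp3 in 1. Casp1 and Casp4, the caspases of the canonical and noncanonical inflammasomes, had log2 fold changes of 1.06 and 1.36 and did not pass (adjusted p = 0.188 and 0.111). None of 20 type I interferon-stimulated genes was called by limma or edgeR, 2 were called by DESeq2 and 4 had an unadjusted p under 0.05, with a median of 0.33. Of 10 tested NF-kappaB-induced inflammatory genes, 8 were higher, with a median of 2.67, among them the chemokine Ccl2 (4.39, adjusted p = 0.00225), Il1b and the receptor Tlr2 (2.98, 0.00620).

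**Figure D3:**
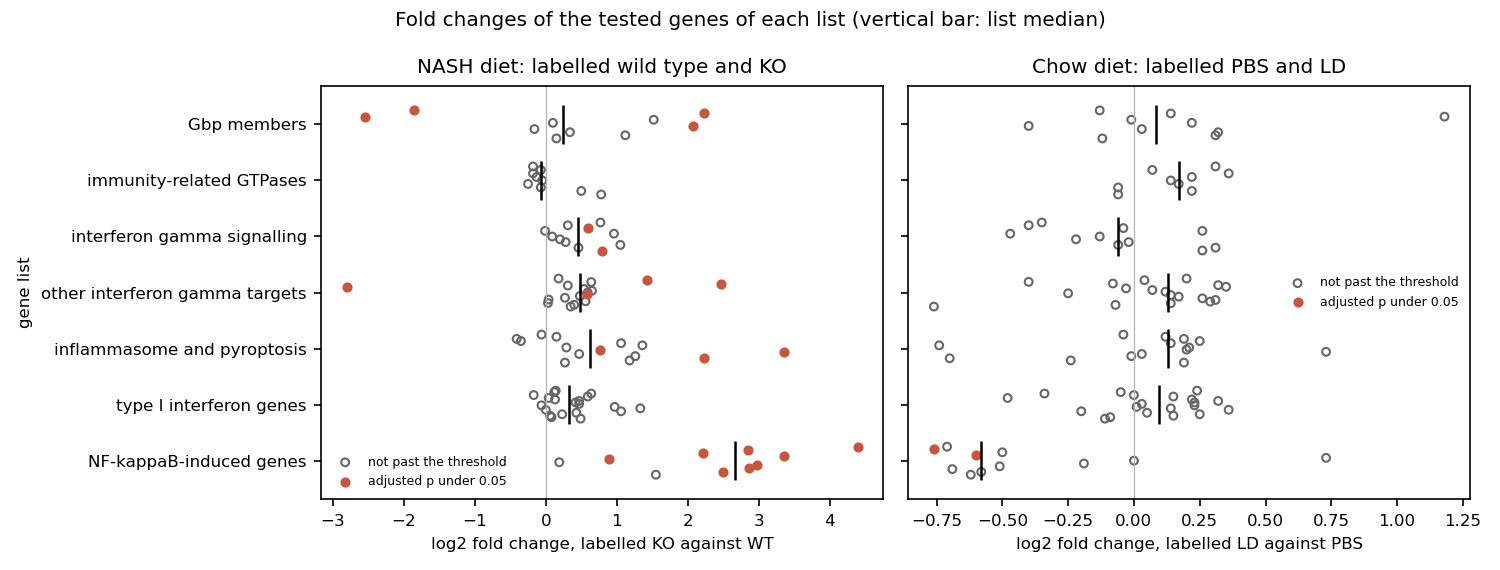
Log2 fold changes (limma) of the tested genes of each list in the comparison labelled KO against wild type (left) and labelled LD against PBS (right), filled where adjusted p was under 0.05, with a vertical bar at the list's median; the axes of the panels differ. On the left the NF-kappaB-induced genes lie furthest to the right (median 2.67), the immunity-related GTPases centre near 0 (median -0.07), and the GBP members spread to both sides.

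Between PBS-labelled and LD-labelled libraries, no member passed the test, and only Gbp2b had groups that did not overlap. Among all 14900 genes tested, 4.16% passed at an adjusted p of 0.05, 1.95% higher and 2.21% lower, and 25.4% had groups that did not overlap (12.6% higher, 12.8% lower). Of the members, 1 had an unadjusted p under 0.05 (19.7% of all genes), DESeq2 on the recovered reads called 1 (8.19%) and edgeR called 0 (4.05%); both single genes were Gbp2b. The members' median log2 fold change was 0.08, against 0.00 over all genes.

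Gbp2b had 76.2, 86.5 and 132 normalized counts in PBS-labelled libraries and 384, 169 and 158 in LD-labelled ones. All 3 of the latter were higher, with LD replicate 1 well above the rest. The log2 fold change was 1.18 ± 0.34 (SE, 95% interval 0.40 to 1.96, limma adjusted p = 0.0959), and 0.77 without LD replicate 1. Without LD replicate 3 the adjusted p was 0.0397, and DESeq2 gave 0.00507. In the authors' deposited table its log2 fold change was 1.27 with an adjusted p of 0.00329, and no other member had an adjusted p under 0.05 there.

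The ratio of Gbp2 to Gbp2b was 4.24, 3.95 and 3.39 in PBS-labelled libraries and 1.34, 2.21 and 2.16 in LD-labelled ones. The groups of ratios did not overlap. Gbp2 itself had 323, 342 and 447 normalized counts against 514, 373 and 343, a log2 fold change of 0.14 (95% interval -0.28 to 0.55), with overlap.

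The remaining members had log2 fold changes from -0.40 for Gbp5 to 0.32 for Gbp7. Gbp5 had 92.3, 61.3 and 91.1 normalized counts in PBS-labelled libraries and 75.6, 46.7 and 63.1 in LD-labelled ones (interval -1.0 to 0.20). Gbp7 had 394, 491 and 593 against 692, 518 and 621 (interval -0.06 to 0.69), and Gbp8 93.3, 128 and 128 against 146, 125 and 161 (0.31, interval -0.13 to 0.75). In each of these the groups overlapped.

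Gbp3 had 214, 185 and 261 normalized counts against 209, 203 and 237 in LD-labelled libraries, with an interval of -0.38 to 0.36 around -0.01. Gbp9 had 349, 309 and 314 against 350, 240 and 313 (-0.12, interval -0.48 to 0.23). Gbp4 had 183, 171 and 205 against 279, 221 and 163 (0.22, interval -0.24 to 0.67). The groups overlapped for all 3, and the interval of Gbp3 stays within 0.4 of 0.

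Gbp6 had 301, 352 and 503 normalized counts against 430, 342 and 387 in LD-labelled libraries (log2 fold change 0.03), and summed with Gbp10 it changed by 0.17 (limma adjusted p = 0.699). Gbp11 had 249, 114 and 407 against 297, 176 and 171, with a wide interval of -1.05 to 0.80. It made up 14.3%, 7.15% and 17.0% of the GBP counts per kilobase in PBS-labelled libraries and 11%, 9.63% and 8.67% in LD-labelled ones. In the other table this share was above 45% in every library, but the tables were normalized separately and the sets of mice differ, so the shares are set side by side without a test. Gbp2 had the highest mean per kilobase among the members in PBS-labelled (147) and LD-labelled libraries (163).

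Irf1 had 1015 ± 108 normalized counts in PBS-labelled libraries and 988 ± 88.4 in LD-labelled ones (SD, n = 3 each, limma adjusted p = 0.897). Ifng averaged 0.334 and 2.10 normalized counts, too low to test. None of the 9 immunity-related GTPases, 11 interferon gamma pathway genes, 18 other targets, 14 genes of the sensing and pyroptosis list or 20 type I interferon-stimulated genes was called by limma or edgeR, and DESeq2 called 1 of the 18 targets. In those 5 lists, unadjusted p was under 0.05 for 0, 3, 3, 3 and 2 genes. The chemokine Cxcl1 (-0.76, limma adjusted p = 0.0403) and the adhesion molecule Icam1 (-0.60, 0.0316) were lower among 11 NF-kappaB-induced genes, each in 1 of 6 fits without a library. Of 12 macrophage markers 1 was higher and 2 lower, with sums of 19356 to 30306 against 17377 to 22518 and none at 0. The 8 cholangiocyte markers had 4 lower calls and sums of 9993 to 13848 against 4081 to 7220. Of 10 stellate markers 3 were lower, with sums of 37527 to 43231 against 30372 to 32559 that did not overlap. The part of these markers in the members' values was not tested.

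The nuclei gave the level of each member by cell group. The deposited table gives mean UMIs per 10000 in 12 numbered groups of nuclei for each genotype. Groups were named from marker lists: hepatocyte-like (groups 0 and 1), stellate-like (2), macrophage-like (3), endothelial-like (4), neutrophil-like (5), T/NK-like (6), cholangiocyte-like (7), B/plasma-like (9), dendritic-like (10) and mesothelial-like (11). Group 8 stayed unnamed, with 4 of 10 stellate markers at the required level and Cxcl10 as its leading gene. The neutrophil-like group met the level for 5 of 10 hepatocyte markers as well as for 7 of 7 neutrophil markers. The B/plasma-like group met it for 4 of 10 hepatocyte markers and the T/NK-like group for 3 of 10. The mesothelial-like group met it for 3 of 8 cholangiocyte markers. With 1 library per genotype there is no test and no replicate error, and the depth behind each mean is unknown.

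Members other than Gbp6 and Gbp7 were low in hepatocyte-like nuclei, and each of the 9 peaked in a nonparenchymal group, as the mean of both genotypes. Gbp2b was highest in macrophage-like nuclei at 2.30 UMIs per 10000, followed by the unnamed group 8 at 0.720, and was at 0.00404 and 0.00536 in the hepatocyte-like groups 0 and 1. Gbp8 was highest in macrophage-like nuclei (1.84), then in T/NK-like nuclei (1.58). Gbp3 was also highest in macrophage-like nuclei (0.456), though in the wild type library alone its top group was the mesothelial-like one.

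Gbp2 (1.75) and Gbp5 (0.813) were highest in mesothelial-like nuclei in both genotypes, with Gbp2 next in neutrophil-like nuclei (0.677) and Gbp5 next in macrophage-like nuclei (0.591). Gbp4 was highest in endothelial-like nuclei (1.14), its top group in the wild type library, and next in T/NK-like nuclei (1.05), its top group in the KO library. Gbp6 was highest in T/NK-like nuclei (0.473), but in the wild type library alone it was higher in stellate-like (0.390) than in T/NK-like nuclei (0.264). Gbp7 was highest in neutrophil-like nuclei in both libraries (mean 1.25). Gbp9 was highest there as a mean (0.449), but in the wild type library it was at 0.122 there and at 0.362 in its top group, the endothelial-like one. The neutrophil-like group was the one with the fewest genes above 0 (8039 in the wild type and 6417 in the KO library). The neighbours Gbp2 and Gbp2b thus had different top groups, mesothelial-like for the one and macrophage-like for the other.

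Gbp6 and Gbp7 kept levels above 0.1 in both hepatocyte-like groups, at 0.124 and 0.145 for Gbp6 and 0.111 and 0.116 for Gbp7. The other 7 members were at or under 0.0233 there. Gbp10, which shares sequence with Gbp6, had its highest mean of both libraries in the hepatocyte-like group 0 (0.0916), but its top group was the neutrophil-like one in the wild type library (0.138) and the T/NK-like one in the KO library (0.133). Hepatocyte RNA was present in every group, and more in the KO library: in macrophage-like nuclei the 10 hepatocyte markers summed to 18.8 UMIs per 10000 in the wild type and 41.5 in the KO library, and in T/NK-like nuclei to 30.1 and 69.3. The part of this RNA in the members' ratios was not tested.

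**Figure D4:**
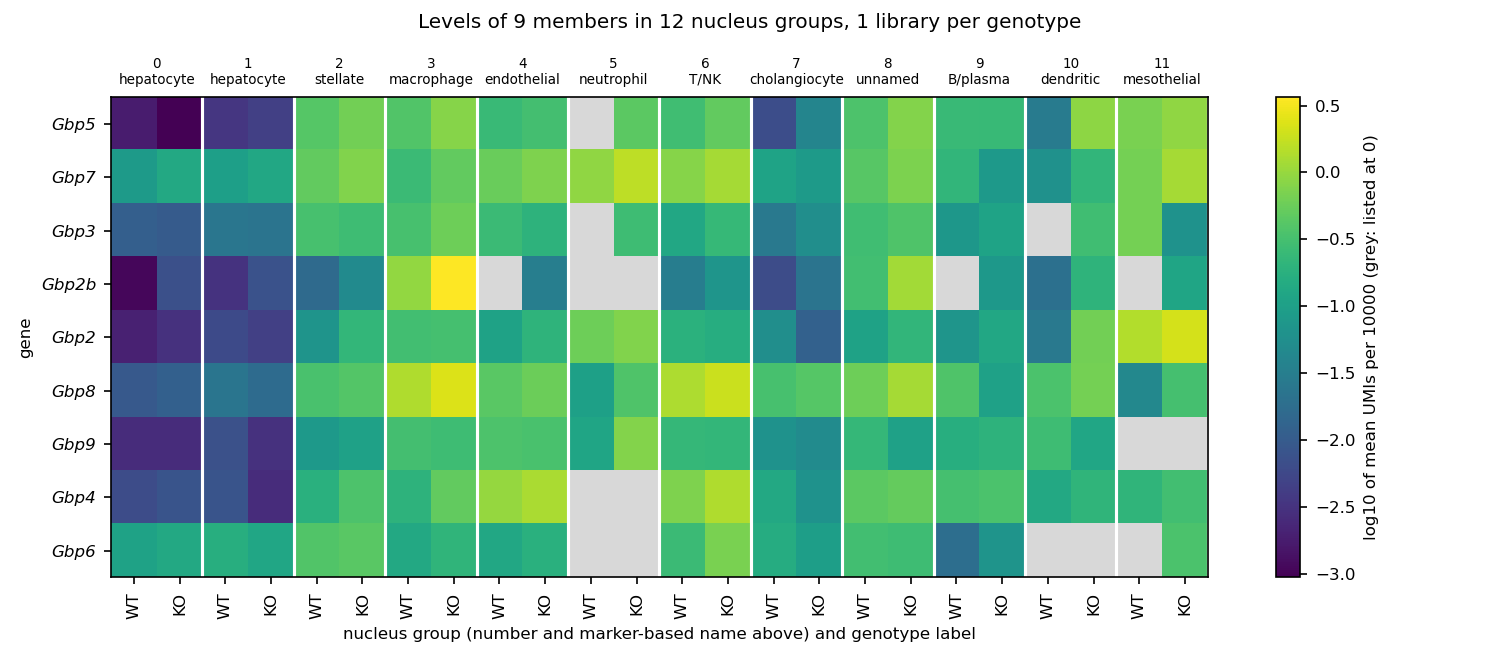
Level of 9 members (rows) in each of 12 nucleus groups in the wild type and KO libraries (columns), as log10 of mean UMIs per 10000, with grey where a gene was listed at 0. The hepatocyte-like columns are dark for all rows but Gbp6 and Gbp7, and the brightest cell is Gbp2b in macrophage-like nuclei of the KO library (3.64).

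Ratios were taken, for members and for all genes alike, where the mean level of both libraries lay above the 50th percentile of its group and both libraries were above 0. The shares of all genes given below are over the genes that met this.

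In macrophage-like nuclei 8 of 9 members were higher in the KO than in the wild type library. Gbp2b was at 0.962 UMIs per 10000 in the wild type and 3.64 in the KO library, a ratio of 3.78. Gbp4 went from 0.196 to 0.498 (2.54) and Gbp5 from 0.381 to 0.80 (2.10). These were the 3 members at least 2-fold higher, where 4.90% of all genes in that group were, and none was 2-fold lower (3.01% of all genes). The members' median log2 ratio was 0.80 against 0.02 for all genes, and their sum was 4.21 in the wild type and 9.16 in the KO library.

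The others in these nuclei changed less. Gbp8 was at 1.34 and 2.33, Gbp7 at 0.259 and 0.501, Gbp3 at 0.332 and 0.579, and Gbp6 at 0.137 and 0.210 UMIs per 10000 in the wild type and KO library. Gbp2 was nearly level, at 0.297 and 0.321, and Gbp9 at 0.305 and 0.282. Gbp2b was therefore the member with the most UMIs in the KO library and second to Gbp8 in the wild type.

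The other lists in macrophage-like nuclei were read the same way. Of 6 immunity-related GTPases with a ratio, Irgm2, Igtp, Iigp1 and Tgtp2 were at least 2-fold higher in the KO library, with a median log2 ratio of 1.12. The interferon gamma pathway list had 0 of 10 at that size with a median of 0.33, and other targets 1 of 15 (Cxcl10) with 0.47. The sensing and pyroptosis list had 3 of 14 (Casp1, Pycard and Isg15) with 0.39, type I interferon genes 2 of 18 (Isg15 and Irf7) with 0.36, and NF-kappaB-induced genes 1 of 10 (Tnf) with 0.33. Isg15 is in both of the lists that count it. Irf1 was at 1.12 in the wild type and 1.79 in the KO library.

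Ifng was highest in T/NK-like nuclei, at 0.0460 UMIs per 10000 in the wild type and 0.395 in the KO library. Elsewhere it was above 0 only in the KO library of the hepatocyte-like groups (0.000503 and 0.00129). Its ratio in T/NK-like nuclei was 8.59, in a group where 9.79% of all genes were at least 2-fold higher. Ifng passed the level filter in these nuclei only through the KO library, where it was high, so this ratio carries little weight. Of 8 members with a ratio in T/NK-like nuclei, 6 were higher and 2 lower in the KO library. Gbp6, at 0.264 and 0.682, was the 1 member at least 2-fold higher, and 0 were 2-fold lower (8.32% of all genes). Gbp4 was at 0.731 and 1.36, Gbp8 at 1.30 and 1.87 and Gbp7 at 0.802 and 1.18. The median log2 ratio was 0.66 against 0.01 for all genes.

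In the unnamed group 8, Gbp2b was at 0.298 and 1.14 UMIs per 10000 (ratio 3.83) and Gbp5 at 0.365 and 0.774 (2.12), while Gbp9 was at 0.229 and 0.107 (0.466). There 8.31% of all genes were at least 2-fold higher and 4.29% lower in the KO library. In stellate-like nuclei Gbp2 (0.0684 and 0.222) was the 1 of 8 members at least 2-fold higher on the scale with the pseudocount, where 6.13% of all genes were and 2.81% were lower. Gbp4, at 0.180 and 0.363, lay just under that limit. In endothelial-like nuclei no member of 8 reached 2-fold in either direction (7.11% of all genes higher, 3.91% lower), and Gbp4, the most abundant, was at 1.0 and 1.28.

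In dendritic-like nuclei 3 of the 7 members with a ratio, Gbp2, Gbp2b and Gbp5, passed the level filter only through the KO library, where they were high, so the count of members carries no weight there. Gbp5 was at 0.0295 and 0.891 UMIs per 10000, Gbp2 at 0.0266 and 0.621, Gbp2b at 0.0201 and 0.200 and Gbp7 at 0.0606 and 0.213, while Gbp9 was lower, at 0.282 and 0.124. In that group 16.5% of all genes were at least 2-fold higher and 13.7% lower. In neutrophil-like nuclei 2 of 4 members were higher and 0 lower (23.7% and 13.5% of all genes), and in mesothelial-like nuclei 1 of 6 was higher and 1 lower (17.6% and 16.3%), and the higher one, Gbp8, passed the filter only through the KO library. In B/plasma-like nuclei 0 of 7 were higher and 2 lower (12.7% and 10.3%). These shares can be read only against such wide backgrounds. In cholangiocyte-like nuclei 1 of 4, Gbp4, was at least 2-fold lower (4.25% of all genes) and 0 higher (7.87%); it passed the filter only through the wild type library. Neither of the 2 members with a ratio in the hepatocyte-like groups reached 2-fold, where 3.73% of all genes were higher and 1.73% lower in group 0, and 4.06% and 3.78% in group 1.

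**Figure D5:**
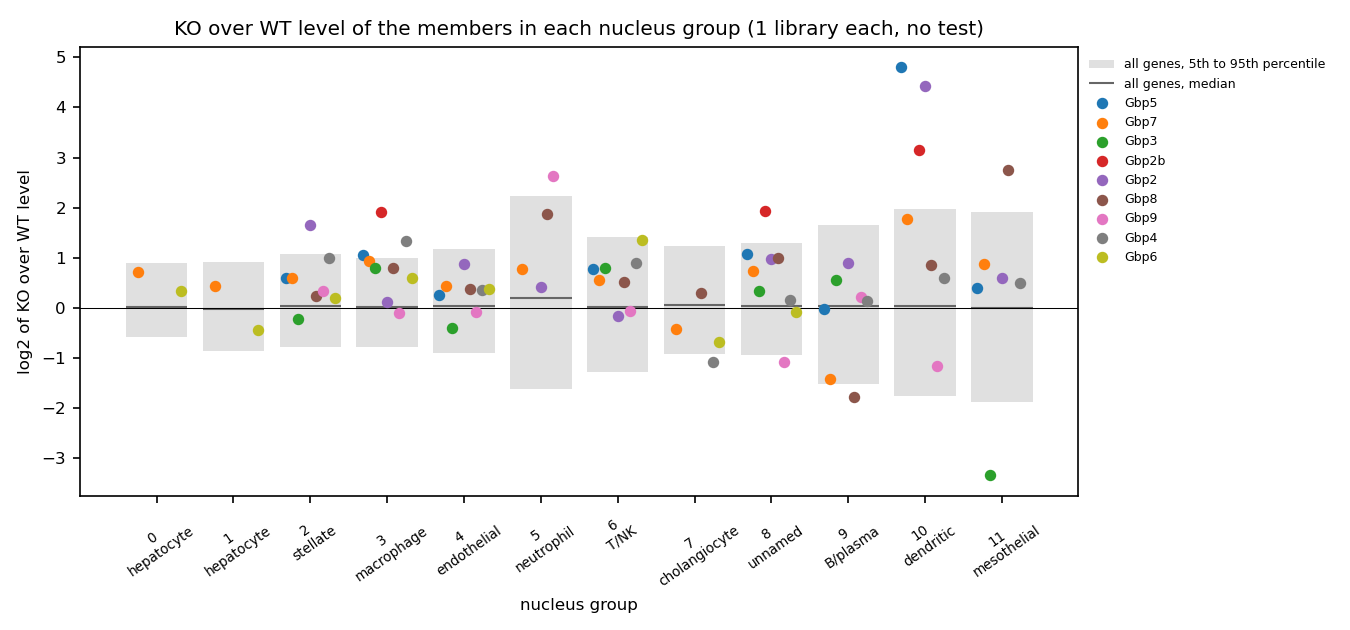
Log2 ratio of the KO over the wild type library for each member with a ratio (points) in each nucleus group, over a grey box from the 5th to the 95th percentile of all genes and a line at their median, with 1 library per genotype and no test. Points above 0 number 8 of 9 in macrophage-like, 7 of 8 in stellate-like and 7 of 9 in unnamed group 8 nuclei. They number 6 of 8 in T/NK-like and endothelial-like, 5 of 6 in mesothelial-like and 4 of 4 in neutrophil-like nuclei. The mesothelial-like count includes Gbp8, which passed the level filter only through the KO library. The share of all genes above 0 was not counted. Their median was 0.20 in the neutrophil-like and 0.02 in the macrophage-like group. In cholangiocyte-like nuclei 1 of 4 lies above 0, and in B/plasma-like nuclei 4 of 7. The grey boxes of the neutrophil-like and mesothelial-like groups are taller than that of the macrophage-like group (-1.63 to 2.23 in the neutrophil-like group and -0.785 to 0.992 in the macrophage-like one).

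The measurements can be set side by side for Gbp2b and the targeted gene. In the macrophage-like nuclei of the KO library Ms4a7 was lower (log2 ratio -1.0) and Gbp2b higher (1.92). In the bulk table labelled wild type and KO the signs were the reverse for both, at 2.63 for Ms4a7 and -2.54 for Gbp2b. In the table labelled PBS and LD they were -3.26 and 1.18, the latter with a limma adjusted p of 0.0959. Gbp5, Gbp3 and Gbp2 did not follow this pattern of signs. The log2 values in macrophage-like nuclei, the first table and the second were 1.06, 2.07 and -0.40 for Gbp5. They were 0.80, 1.52 and -0.01 for Gbp3, and 0.11, 2.23 and 0.14 for Gbp2. Gbp4, Gbp7 and Gbp8 had positive values throughout, but that of Gbp4 in the first table was -0.15 without KO replicate 3. Gbp6 was at 0.60, -0.16 and 0.03, and Gbp9 at -0.11, 0.15 and -0.12. Their signs were not settled. In the first table Gbp6 was at 0.05 without KO replicate 2, and Gbp9 at -0.18 without wild type replicate 1. Neither Gbp6 nor Gbp9 passed the test in either table. No test spans the nuclei and the tables.

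Across the 24 columns of nucleus group by genotype, the genes whose level followed the members' summed level most closely (Pearson r of log2 values) were Hip1 (0.939), Herc6 (0.883), Dse (0.883), Parp14 (0.875) and 9930111J21Rik2 (0.874), of 15335 genes. The columns share libraries, and hepatocyte-like groups stand far below the rest. For comparison r was 0.743 for Irf1, which put it at the 99.3 percentile of those genes, and among immunity-related GTPases it was 0.446 for Igtp, 0.358 for Irgm1 and 0.061 for Iigp1, at the 91.0, 85.4 and 59.3 percentile.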

How the data were processed

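The deposited bulk tables hold normalized counts per gene (a signal scaled per library) beside the authors' log2 fold changes and adjusted p-values; per the submitters' processing notes STAR, DESeq2, Cell Ranger and Seurat 4.0.1 were used with mm10. The counter and gene annotation are not given in the sources used here. Every value was a whole number of reads within 0.01 after division by its library's smallest step. The deposited nucleus table holds mean UMIs per 10000, a signal per nucleus group and genotype, and 4 entries with repeated names were left out. The log2 and adjusted p-value columns deposited by the authors are printed only where named as theirs.

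Genes with at least 10 in 3 of 6 libraries were tested with limma 3.58.1 (trend) on log2(value + 1), so fold changes understate those of low genes, with Benjamini-Hochberg adjustment over all genes, two-sided, threshold 0.05. Each table was fitted alone. Alternatives were other pseudocounts and filters, quantile normalization, a replicate block, leaving out each library, and edgeR 4.0.16 and DESeq2 1.42.0 on the recovered counts, which are not counts the authors deposited as such. On simulated data with 200 changed genes, limma recovered 53.8% of genes changed by 1 and 97.2% by 2 on the log2 scale in the KO table (15874 genes), and 80.2% and 100% in the LD table (14933 genes). The simulation gave every gene the same dispersion (spread between libraries), which the real genes do not have.

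Nucleus ratios used a pseudocount of 0.00248 (the 5th percentile of values above 0) and were taken for genes whose mean level of both libraries lay above the 50th percentile in that group, with both libraries above 0; the shares over all genes use the same filter. A marker counted for a group when it reached at least 0.5 of its level in the top group. The list with the largest share of such markers named the group, given at least 3 of them and 50% of the list, a rule set after seeing the table. Group 0 just met it, with 5 of 10 hepatocyte markers. How doublets and free RNA were handled is not given in the sources used here. Members and lists were chosen with earlier results of these data known. Named were all members, Ms4a7, Ifng, Irf1, up to 3 called genes per list and direction with the largest changes, and the 5 genes most like the summed members in the nuclei, except 1 item that is not reported here. A likeness to Gbp2 over the 6 libraries of each bulk table was not run, since the libraries form 2 groups. Casp1, Casp4, Iigp1 and Gbp10 were named after their values were seen.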

Additional observations from a re-analysis of the deposited data

Results flagged for a closer look

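For 4 members the KO over wild type ratio was at least 2-fold higher in one group of nuclei and at least 2-fold lower in another. With 1 library per genotype none of these differences was tested. The log2 ratio of Gbp4 was 1.33 in macrophage-like nuclei (group 3) and -1.09 in cholangiocyte-like nuclei (group 7). That of Gbp7 was 1.77 in dendritic-like (group 10) and -1.42 in B/plasma-like nuclei (group 9). That of Gbp8 was 2.75 in mesothelial-like (group 11) and -1.78 in B/plasma-like nuclei (group 9). That of Gbp9 was 2.64 in neutrophil-like (group 5) and -1.17 in dendritic-like nuclei (group 10). Among all genes with a ratio, 23.7% were at least 2-fold higher in group 5 and 17.6% in group 11, 16.5% were higher and 13.7% lower in group 10, and 10.3% were lower in group 9. The shares were 4.90% higher in group 3 and 4.25% lower in group 7. Gbp4 in group 7 and Gbp8 in group 11 passed the level filter only through the library where they were higher.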

How the results depend on the processing

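The 4 members called in the KO table kept their direction under every alternative run. DESeq2 on the recovered counts called 1241 genes in the comparison labelled KO and 1221 in that labelled LD, and 1 member in the latter (Gbp2b), against 589, 620 and 0. Leaving out 1 library at a time gave 124 to 530 genes and 1 to 4 members labelled KO against wild type, and 134 to 1226 genes and 0 to 1 members labelled LD against PBS. The same-numbered libraries did not deviate together (r of 0.12, -0.03 and -0.02 in the KO table, 0.05, -0.04 and 0.13 in the LD table). With the replicate number as a block, 822 and 793 genes were called, with 6 members in the KO table (Gbp3 and Gbp8 added, adjusted p = 0.00790 and 0.0121) and 0 in the LD table, and the adjusted p of Irf1 became 0.0536. In the nuclei, a pseudocount of 0.0352 brought Gbp4 in group 7 to -0.81, Gbp9 in group 8 to -0.90 and Gbp9 in group 10 to -0.99, all under 2-fold. The causes of these changes were not tested. All members passed the filter in bulk, but precision limited the tests. On data simulated with the same dispersion for every gene, 53.8% of changes of 1 on the log2 scale were recovered in the KO table and 80.2% in the LD table. The real spread differs by gene, with an SE of 0.15 for Gbp11 and 0.46 for Gbp2b in the KO table. These shares are therefore not the power for any 1 member. The depth of the nucleus means is unknown.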
